A study of Homo sapiens with 24 samples.

Results

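Within a series of 24 arrays of the human bladder cancer line RT112 6 arrays stood apart by a low signal of FGFR3 on the probe set 204379_s_at, and these 6 fell into 3 with low and 3 with high TACC3. The arrays were chosen on measured values and without regard to their labels. The rule took every array below 11.6 on the log2 scale for FGFR3 probe set 204379_s_at and split those arrays at 11.6 for TACC3 probe set 218308_at. The 3 TACC3-low arrays were labelled 4-1 with doxycycline (replicate 1), EGFP without doxycycline (replicate 3) and 2-4 with doxycycline (replicate 2). The 3 TACC3-high arrays were labelled 2-4 without doxycycline (replicate 3) and 6-16 without doxycycline (replicates 1 and 3). The 6 are called FGFR3-3'-low arrays below, and each set of 3 a trio. That name stands for the rule on probe set 204379_s_at alone, and the 3' position in it was not checked.

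All cells of the series carried an inducible short hairpin RNA and were grown in medium with 1% serum. The hairpin was directed at EGFP, a reporter gene from jellyfish that these cells do not have, in 1 line and at FGFR3 in the lines 2-4, 4-1 and 6-16. Each line was held for 48 h without or with doxycycline, the drug that switches the hairpin on, at 1 µg/ml, which gave 8 labelled groups of 3 arrays. The labels do not say whether a line is a single clone or a pool, or whether the 3 arrays of a group came from separate cultures, so p-values for labelled groups measure only the spread between these arrays.

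FGFR3 is a receptor tyrosine kinase that binds fibroblast growth factors at the cell surface and passes the signal through adaptor proteins to the RAS, RAF and ERK kinase chain. It is often activated in bladder cancer by point mutation or by fusion. TACC3 is a coiled-coil protein that stabilises the microtubules of the mitotic spindle and lies close to FGFR3 on the same chromosome. RT112 is known for a fusion gene that joins the front part of FGFR3, with its kinase domain, to the end part of TACC3, so a TACC3 signal in these cells can come from the fusion as well as from TACC3 itself. Where each probe set lies along these transcripts was not analysed here.

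The trios did not follow the labelled groups, and each mixed hairpin lines. The TACC3-high trio held only arrays of FGFR3 hairpin lines labelled without doxycycline. The TACC3-low trio mixed doxycycline labels. Its 4-1 and 2-4 arrays were labelled with doxycycline, and its 1 array of the EGFP control line without. After each gene was centred on its mean over the 24 arrays, the nearest arrays of each of the 6 were its own 2 trio mates. The correlation across genes was 0.69 to 0.82 within the TACC3-low trio, 0.73 to 0.78 within the TACC3-high trio and -0.37 to -0.23 between the trios, where genes are not independent replicates. The array labelled 4-1 with doxycycline correlated with the other arrays of its labelled group at -0.44 and -0.30, and that labelled 2-4 with doxycycline at -0.36 and -0.13. For the array labelled EGFP without doxycycline these values were -0.36 and 0.52, and for that labelled 2-4 without doxycycline -0.48 and 0.22. The 6-16 arrays of the TACC3-high trio, which share a label as well as a trio, correlated at 0.73 with each other and at 0.0076 and -0.0067 with the remaining array of their label. The range of a gene over 3 arrays had a median of 0.148 log2 in the TACC3-low trio and 0.131 in the TACC3-high trio, against 0.208 within labelled groups. No pair of arrays held identical values. Because the trios were formed from measured values, their differences are given as descriptions without a test.

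The FGFR3 probe set of the rule read 11.28, 11.13 and 11.34 on the TACC3-low arrays (here and below in the order 4-1, EGFP, 2-4) and 11.42, 11.43 and 11.36 on the TACC3-high arrays (in the order 2-4, 6-16 replicate 1, 6-16 replicate 3). All 6 lay below the other 18 arrays, which ran from 11.83 to 12.34. The nearest array inside the threshold was at 11.43 and the nearest outside at 11.83. Between the trios this probe set differed by only -0.14 (TACC3-low minus TACC3-high, middle value of each trio, as in all differences below), with 0.02 between the nearest values.

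The second FGFR3 probe set, 204380_s_at, went against the name of the set. It read 9.29, 9.19 and 9.21 on the TACC3-low arrays and 11.14, 11.03 and 11.20 on the TACC3-high arrays, a difference of -1.93. The TACC3-high trio lay above all 18 other arrays on this probe set, whose values ran from 8.71 through a median of 10.48 to 10.95. These 3 arrays were therefore low for FGFR3 on 1 probe set and the highest of the series on the other. TACC3 read 11.35, 11.31 and 11.43 on the TACC3-low arrays and 12.62, 12.50 and 12.50 on the TACC3-high arrays, where the split fixes the order. The TACC3-high values again exceeded the highest of the other 18 arrays, 12.27.

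**Figure D1:**
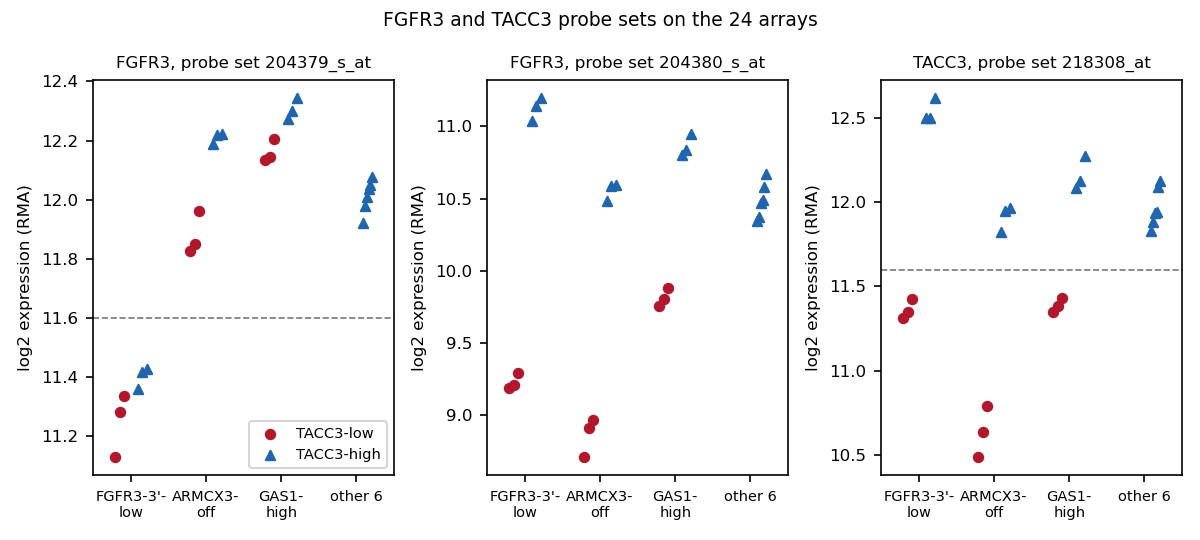
Log2 expression (RMA) of the 2 FGFR3 probe sets and of TACC3 on the 24 arrays, 1 point an array, in 4 sets of 6 arrays along the horizontal axis, red circles for arrays with TACC3 below 11.6 and blue triangles for the rest. Dashed lines mark the thresholds of 11.6; the 3 TACC3-high FGFR3-3'-low arrays lie under the line in the left panel but sit between 11.03 and 11.20, above all others, in the middle panel.

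The labelled comparisons, the only ones the design allows to be tested, called no gene. In limma's fit of the 8 labelled groups, 0 of 19775 genes (0%) passed an adjusted p of 0.05 (Benjamini-Hochberg) for the change with doxycycline in the EGFP, 2-4, 4-1 or 6-16 line, or for the mean change of the FGFR3 lines minus that of the EGFP line. At an unadjusted p under 0.05 the counts were 505, 487, 223, 1539 and 428. Where no gene changes, a share of about 0.05 of the 19775 genes is expected there, more than every count but that of the 6-16 line. Other settings of the same tool called up to 1291 genes in the 6-16 line, as given in the closing section. These counts hold for the groups as labelled. The trios did not follow the labelled groups, and whether the labels describe the arrays was not tested.

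The genes described below had the same outcome, which says little about them. Most were chosen because they separate trios that cut across the labels, which goes with a wide spread within labelled groups. The 6-16 line also holds arrays of the TACC3-high trio that served to choose them. FGFR3 on its brightest probe set, 204379_s_at, differed with doxycycline by 0.15 (SE 0.31) in the 2-4 line, -0.24 (SE 0.31) in the 4-1 line and 0.42 (SE 0.31) in the 6-16 line, with limma adjusted p of 0.999, 0.9999 and 0.7601. The second FGFR3 probe set, 204380_s_at, differed by 0.17, 0.29 and -0.83 (SE 0.62 each) in these lines. Its limma adjusted p was 1, 1 and 0.7367 in a fit of each of 41097 probe sets on its own, added after the data were seen. Neither FGFR3 probe set passed as lower in a line labelled as carrying a hairpin against it. MMP1 differed by -1.64 (SE 1.40, limma adjusted p = 0.7912) and TRIM22 by 0.91 (SE 1.23, limma adjusted p = 0.8686) in the 6-16 line. The smallest adjusted p among the 118 genes named by rule was 0.5696, for GPRASP3 in the 6-16 line (1.13, SE 0.39).

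Between the 2 trios, 79 of 19775 genes lay lower (0.399%) and 155 lay higher (0.784%) on all 3 TACC3-low arrays than on all 3 TACC3-high arrays with middle values at least 2-fold apart. At any size of difference, 4138 genes (20.9%) lay lower and 4772 (24.1%) lay higher without overlap. The trios were chosen on these arrays, so nothing is read from those shares. TACC3, whose order the split fixed, is among the 79 lower genes. The counts of list members below stand beside the shares at any size. These are bulk RNA values, in which fewer cells of a kind and less RNA per cell cannot be told apart.

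MMP1, the interstitial collagenase that cuts fibrillar collagen, was among the 12 lower genes with the widest gap between the trios. Its values were 5.42, 4.35 and 5.23 on the TACC3-low arrays and 9.34, 9.55 and 9.34 on the TACC3-high arrays, a difference of -4.11 whose size is uncertain because the TACC3-low values lie near the low end of the scale. All 3 TACC3-low values lay below the lowest of the other 18 arrays, 5.93. FABP4, a fatty acid carrier of fat cells and urothelium, read 9.75, 9.50 and 9.69 against 12.61, 12.70 and 12.57, a 7.60-fold difference. FGFBP1, a secreted protein that releases fibroblast growth factors from the matrix, read 8.84, 8.99 and 8.89 against 11.29, 11.38 and 11.36. The TACC3-high values of FGFBP1 exceeded those of all other arrays, which reached 11.10.

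Among the higher genes, TRIM22, an interferon-inducible E3 ubiquitin ligase, read 9.31, 9.27 and 9.40 on the TACC3-low arrays and 5.89, 5.82 and 6.11 on the TACC3-high arrays, a 10.7-fold difference. IGFBP5, a secreted binder of insulin-like growth factors, read 9.47, 9.17 and 9.09 against 6.46, 6.11 and 6.18. For TRIM22 and IGFBP5 the size of the difference is uncertain, because the TACC3-high values lie toward the low end of the scale. SELENOP, a secreted selenium carrier, read 11.15, 11.04 and 10.96 against 8.21, 8.20 and 8.41, and its TACC3-low values lay above the 10.73 reached on the other 18 arrays. ERP27, a protein of the endoplasmic reticulum, read 11.08, 10.91 and 11.07 against 8.92, 8.83 and 8.71. Here the TACC3-high trio was the extreme one, below the lowest other array at 9.38.

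**Figure D2:**
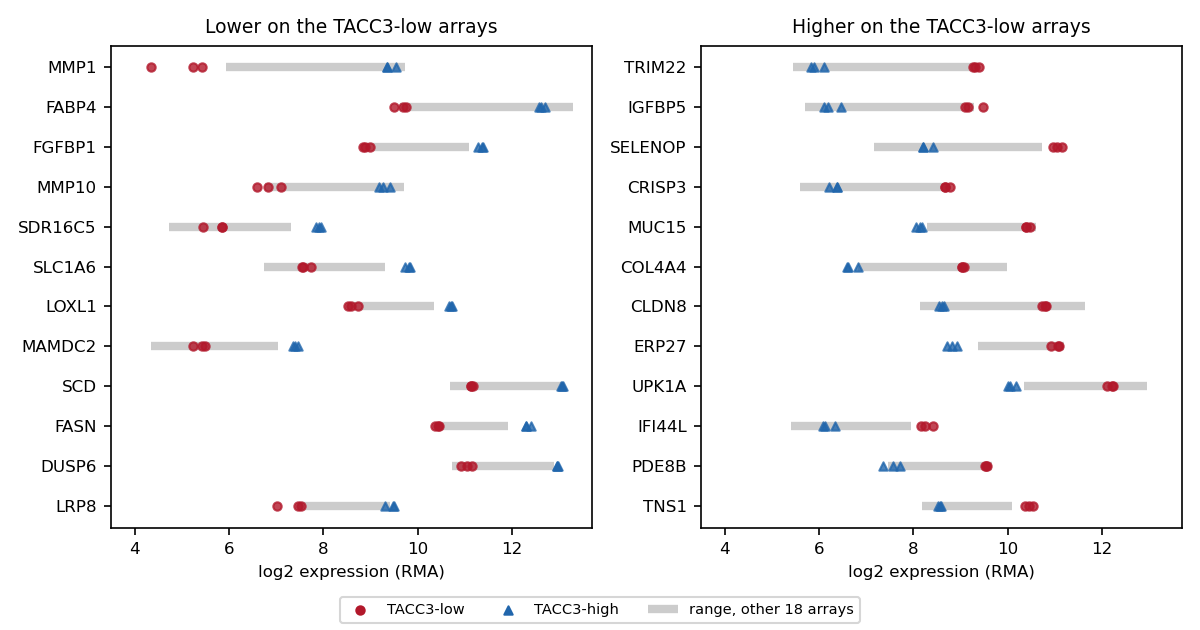
Log2 expression (RMA) of the 12 genes with the widest gap between the trios in each direction, 1 symbol an array, red circles for the 3 TACC3-low and blue triangles for the 3 TACC3-high FGFR3-3'-low arrays. Grey bars give the range of the other 18 arrays; the trios do not touch in any of these genes, which were chosen for that, and MMP1 on the TACC3-low arrays lies below the bar, whose low end is 5.93.

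The receptors and adaptors that carry the FGF signal differed unevenly. Of 18 measured FGF receptors, ligand carriers and adaptors, 4 lay lower, 6 higher and 8 overlapped between the trios. Over all genes, 20.9% lay lower and 24.1% higher. The lower members include TACC3, whose order the split fixed. The median difference of the list was 0.02, against -0.02 over all 19775 genes. FGFR2, a receptor of the same family, read 10.35, 10.22 and 10.28 on the TACC3-low arrays and 9.27, 9.35 and 9.31 on the TACC3-high arrays, on the brightest of its 11 probe sets, of which 8 differed in the same direction. SOS1, the exchange factor that activates RAS, lay higher by 0.85 on the TACC3-low arrays. The values of FGFR1 and FGFR4 overlapped between the trios, with differences of -0.00 and -0.11.

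Genes that the ERK pathway switches on lay mostly lower on the TACC3-low arrays. Of 24 such genes, 17 lay lower, 1 higher and 6 overlapped, beside 20.9% lower and 24.1% higher over all genes. In this list 4 lower genes and the 1 higher gene were at least 2-fold apart, beside 0.399% lower and 0.784% higher over all genes. The median difference of the list was -0.42. DUSP6, the phosphatase that removes phosphate from ERK in a feedback loop, read 11.15, 10.93 and 11.04 against 12.97, 12.95 and 12.95. The transcription factor ETV4 differed by -1.58 and PHLDA1, an early growth factor response gene, by -1.23. The TACC3-high values of DUSP6 lay just above the 12.90 reached on the other 18 arrays, and the TACC3-low values lay inside their range. The 1 higher member was the ephrin receptor EPHA4, at 10.40, 10.22 and 10.31 against 9.05, 9.18 and 9.16.

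Of 13 EGFR family receptors and ligands, 4 lay lower and 4 higher, beside 20.9% lower and 24.1% higher over all genes. HBEGF, a ligand of EGFR, read 9.06, 8.77 and 8.96 against 9.91, 10.02 and 9.94, on the brightest of 4 probe sets, 3 of which differed the same way. ERRFI1, a feedback inhibitor of EGFR, differed by -0.45. The receptors ERBB2 and ERBB3 lay higher by 0.66 and 0.65 on the TACC3-low arrays, with ERBB3 at 12.48, 12.37 and 12.42 against 11.77, 11.77 and 11.74. Only 3 of 5 ERBB3 probe sets differed in that direction.

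Cholesterol synthesis had the largest median difference of the 24 gene lists. Cells make cholesterol from acetyl-CoA through a chain of enzymes whose genes are switched on together by SREBP2 when sterols run low. Of 19 measured genes of synthesis and its control, 17 lay lower on the TACC3-low arrays, 0 higher and 2 overlapped. Over all genes, 20.9% lay lower and 24.1% higher. In this list 9 were at least 2-fold lower, beside 0.399% of all genes, and the median difference was -0.999. SQLE, squalene epoxidase, read 10.97, 11.03 and 11.11 against 12.84, 12.94 and 12.94. INSIG1, which holds SREBP in the endoplasmic reticulum and is itself an SREBP target, read 10.20, 10.10 and 10.20 against 11.98, 11.99 and 11.97. MSMO1, a sterol demethylase, differed by -1.83 and HMGCS1, an early enzyme of the chain, by -1.56. In each of these 4 genes the TACC3-low values lay at or near the bottom of the range of the other 18 arrays, and the TACC3-high values lay above it except for HMGCS1, whose values reached into it.

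The promoters of these genes were read from RefSeq sequence (GRCh38.p14), because the list lay lower together. Among the 250 bases upstream of the start, on both strands, 16 of 17 cholesterol genes with a promoter sequence held the letters CCAAT (94.1%), against 37% of 27305 genes. CCAAT is the box bound by NF-Y, a factor that acts with SREBP2 at sterol genes. This search was added after the values were seen. Of 21 mitosis genes, 19 held these letters as well (90.5%). The sterol element letters TCACNCCAC were in 1 of 17 (5.88%), against 1.09% of all genes. The stretch that holds the CCAAT letters is given for 3 of the genes, written along each gene's strand with those letters, or ATTGG where they lie on the opposite strand, in capitals. INSIG1 lies on the plus strand (chr7:155297698-155297722), MSMO1 on the plus strand (chr4:165327474-165327649) and HMGCS1 on the minus strand (chr5:43313498-43313577).
INSIG1: ccggcctcccATTGGttgcggccgc
MSMO1: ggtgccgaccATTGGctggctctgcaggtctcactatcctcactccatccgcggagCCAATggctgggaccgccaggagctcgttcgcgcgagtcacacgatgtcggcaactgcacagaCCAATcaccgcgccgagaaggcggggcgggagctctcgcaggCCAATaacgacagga
HMGCS1: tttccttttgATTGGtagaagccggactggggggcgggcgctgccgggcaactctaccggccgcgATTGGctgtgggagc
The MSMO1 stretch held 4 such matches, the HMGCS1 stretch 2 and the INSIG1 stretch 1. A match describes the letters and is not a measured binding site.

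Fatty acid synthesis lay lower as well. Of 15 measured genes, 13 lay lower, 1 higher and 1 overlapped, beside 20.9% lower and 24.1% higher over all genes. At least 2-fold lower were 6, beside 0.399% of all genes, and the median difference of the list was -0.69. SCD, which puts the first double bond into saturated fatty acids, read 11.13, 11.13 and 11.16 against 13.09, 13.07 and 13.03, a 3.83-fold difference with almost no spread inside either trio. FASN, the fatty acid synthase, read 10.45, 10.43 and 10.37 against 12.39, 12.30 and 12.29, although only 1 of its 2 probe sets separated the trios. ACSS2, which makes acetyl-CoA from acetate, differed by -1.20 and ME1, a source of NADPH, by -1.14. The 1 higher member was ACSL1, which activates long fatty acids, at 0.29, named after its value was seen.

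Genes that the sterol receptor LXR and the fat regulator PPARG switch on were divided. Of 8 LXR targets, 3 lay lower and 3 higher, and of 12 PPARG-linked genes also 3 and 3, beside shares of 20.9% and 24.1% over all genes. Among them the cholesterol exporter ABCG1 read 7.90, 7.39 and 7.68 against 6.33, 6.54 and 6.54, and MYLIP, which marks the LDL receptor for degradation, lay higher by 0.77. PPARG itself differed by -0.42, FABP4 by -2.93 and PDK4, a brake on pyruvate oxidation, by 1.66, with 2 of 3 PDK4 probe sets in that direction.

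DNA replication genes lay lower by small amounts. Of 29 measured genes of the G1/S step and replication, 24 lay lower, 0 higher and 5 overlapped, and 1 was at least 2-fold lower. The median difference was -0.34. Over all genes, 20.9% lay lower, 24.1% higher and 0.399% at least 2-fold lower. The 1 list member at least 2-fold lower was CDC6, which loads the replicative helicase, at 8.41, 8.24 and 8.34 against 9.41, 9.16 and 9.37. The helicase subunit MCM6 read 10.68, 10.53 and 10.69 against 11.32, 11.29 and 11.26, and CDC45 and MCM10, which start the helicase, differed by -0.63 and -0.64. On all 4 genes the TACC3-high trio lay inside the range of the other 18 arrays.

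G2/M and mitosis genes differed less. Of 26, 15 lay lower, 3 higher and 8 overlapped, beside 20.9% lower and 24.1% higher over all genes. None of the 26 was 2-fold apart, and their median difference was -0.09. The mitotic kinase PLK1 read 9.62, 9.46 and 9.58 against 10.07, 10.05 and 9.95, AURKA differed by -0.27 and CCNB1 by -0.32. The 3 higher members, CENPF, NUSAP1 and TOP2A, differed by 0.06, 0.12 and 0.25 and were named after their values were seen.

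The E2F letters TTTGGCGC, TTTCGCGC and TTTCCCGC were found within 250 upstream bases, on either strand, in 13 of 26 replication genes with a promoter sequence (50%), against 2.85% of all 27305 genes. The letters TTTGAA, found at the cell cycle element of G2/M genes, were in 12 of 21 mitosis genes (57.1%), against 16.1% of all genes, and in 1 of 26 replication genes. A pair of helicase subunit promoters shows the E2F letters in capitals, overlapping matches on both strands joined, written along the gene's strand. MCM6 lies on the minus strand at chr2:135876512-135876605 and MCM7 on the minus strand at chr7:100101398-100101594.
MCM6: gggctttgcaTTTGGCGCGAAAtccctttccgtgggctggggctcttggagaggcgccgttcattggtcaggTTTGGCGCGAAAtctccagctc
MCM7: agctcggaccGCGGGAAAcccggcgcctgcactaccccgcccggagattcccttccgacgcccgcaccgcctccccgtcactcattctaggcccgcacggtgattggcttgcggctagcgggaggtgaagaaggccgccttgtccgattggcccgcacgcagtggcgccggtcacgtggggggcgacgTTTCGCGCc
MCM6 held 4 matches and MCM7 held 2. The levels of MCM7 were 10.80, 10.62 and 10.78 against 11.31, 11.38 and 11.29.

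Among 17 D cyclins, CDK inhibitors and MYC family genes, 6 lay lower and 5 higher, beside 20.9% lower and 24.1% higher over all genes. MYCL, a MYC relative, read 11.03, 10.97 and 10.95 against 9.78, 9.67 and 9.64 and was the 1 member at least 2-fold apart. MYC itself differed by -0.45. CDKN1B, the inhibitor p27 that holds cells in G1, read 11.62, 11.49 and 11.50 against 10.96, 10.98 and 10.93. The TACC3-high values of CDKN1B were below all 18 other arrays, whose lowest was 11.12.

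Growth and energy genes lay lower in several lists, whose counts stand beside 20.9% lower and 24.1% higher over all genes. Of 14 ribosome biogenesis genes, 13 lay lower and 0 higher, with a median difference of -0.36 and with NOP16, a nucleolar protein, at -0.76. Of 20 nuclear genes of the respiratory chain, 17 lay lower and 1 higher, with a median of -0.20. Of 25 glycolysis and hypoxia genes, 16 lay lower and 5 higher, with a median of -0.21. The glycolytic enzyme PKM read 12.68, 12.61 and 12.66 against 13.66, 13.62 and 13.60. PFKFB3, which makes an activator of glycolysis, lay the other way, at 10.52, 10.39 and 10.44 against 9.37, 9.34 and 9.41, and so did the vessel-relaxing peptide gene ADM, by 0.97.

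Genes of urothelial differentiation lay higher on the TACC3-low arrays. Of 19 luminal genes, 15 lay higher, 3 lower and 1 overlapped, beside 24.1% higher and 20.9% lower over all genes. At least 2-fold higher were 2, beside 0.784% of all genes, and the median difference of the list was 0.48. UPK1A, a uroplakin of the surface plaque of umbrella cells, read 12.24, 12.10 and 12.21 against 10.02, 10.18 and 10.04, a 4.48-fold difference. The TACC3-high values of UPK1A lay below all 18 other arrays, whose lowest was 10.34. UPK1B, its relative, lay higher by 0.63 and the sorting nexin SNX31 by 1.05. The 3 lower members were the keratins KRT8, KRT18 and KRT20, at -0.68, -0.42 and -0.28, named after their values were seen.

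CLDN8 and MUC15 were among the 12 higher genes with the widest gap. CLDN8, a tight junction claudin, read 10.80, 10.73 and 10.81 against 8.62, 8.64 and 8.54, and the mucin MUC15 differed by 2.25. Of 10 basal keratin and hemidesmosome genes, 4 lay lower and 3 higher, beside 20.9% lower and 24.1% higher over all genes. KRT5, the basal keratin, read 11.22, 11.09 and 11.13 against 12.23, 12.26 and 12.21. LAMB3, a laminin chain that anchors basal cells, and DST, a hemidesmosome linker, lay higher by 1.02 and 1.39, with 9 of 10 DST probe sets in that direction.

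**Figure D3:**
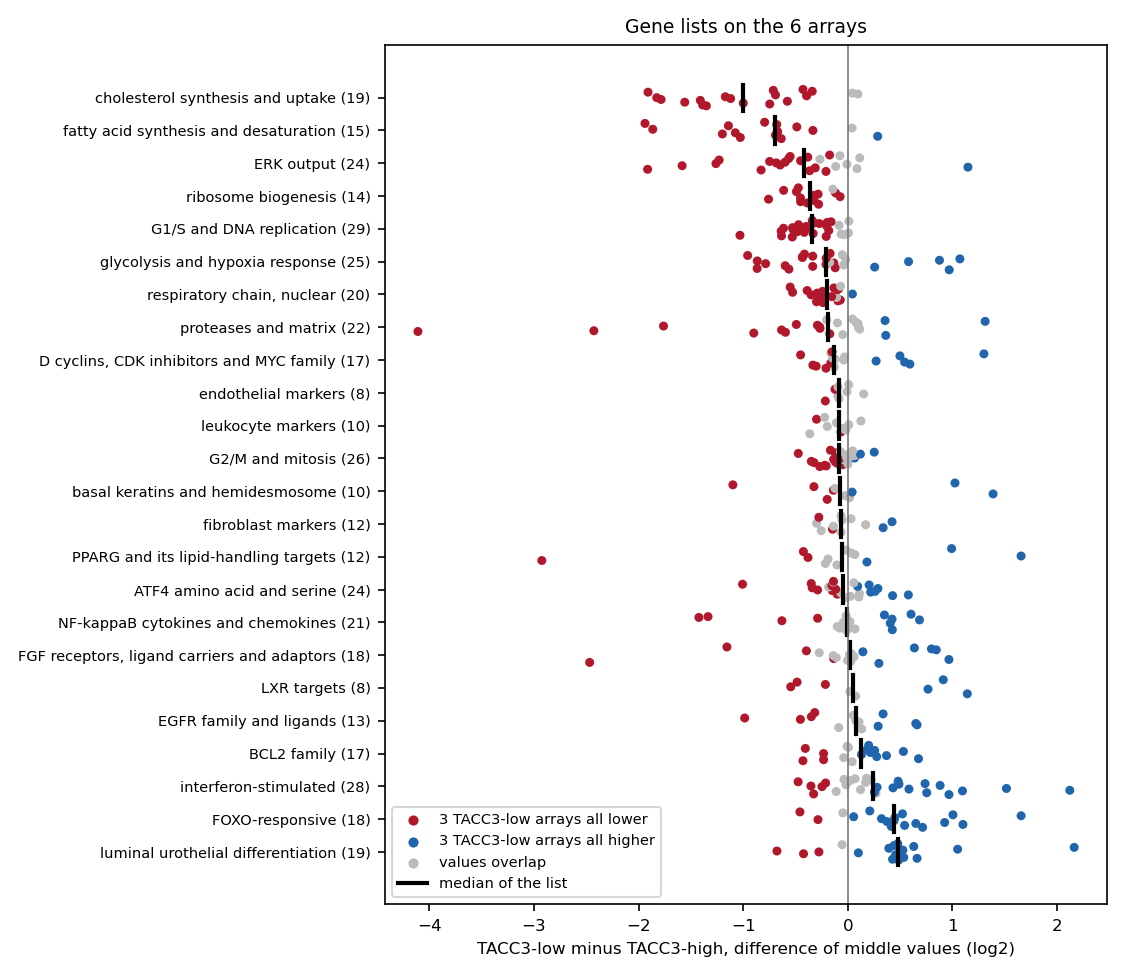
Difference between the middle values of the 3 TACC3-low and the 3 TACC3-high FGFR3-3'-low arrays (log2, horizontal axis) for each measured member of the 24 gene lists, with the number measured in brackets. Red and blue points are genes whose trios do not overlap, lower and higher, grey points overlap, and black bars are list medians, which run from -0.999 for cholesterol synthesis to 0.48 for luminal differentiation.

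FOXO-responsive genes, which FOXO factors switch on when growth factor signalling drops, lay mostly higher. Of 18, 15 lay higher, 2 lower and 1 overlapped, beside 24.1% higher and 20.9% lower over all genes. At least 2-fold higher were 3, beside 0.784% of all genes, and the median difference of the list was 0.45. PIK3IP1, an inhibitor of PI3 kinase, read 9.84, 9.54 and 9.62 against 8.63, 8.61 and 8.49. CITED2, a transcriptional co-regulator, differed by 1.10, on 2 of its 3 probe sets in that direction, and FBXO32, a ubiquitin ligase subunit, by 0.93. The 2 lower members, TRIB1 and GADD45A, differed by -0.46 and -0.29 and were named after their values were seen.

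Interferon-stimulated genes were divided. Of 28, 13 lay higher, 5 lower and 10 overlapped, beside 24.1% higher and 20.9% lower over all genes. In this list 3 were at least 2-fold higher, beside 0.784% of all genes, and the median difference was 0.24. IFI44L read 8.41, 8.16 and 8.25 against 6.08, 6.13 and 6.34, and the antiviral RNA binder IFIT1 read 9.78, 9.45 and 9.59 against 8.19, 8.07 and 7.97. IRF9, the DNA-binding part of the interferon transcription complex, read 10.68, 10.58 and 10.60 against 9.72, 9.72 and 9.72. The 5 lower members, OAS3, IRF7, CXCL10, IRF1 and OAS1, differed by -0.48 to -0.21 and were named after their values were seen.

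Of 21 NF-kappaB cytokine and chemokine genes, 4 lay lower, 6 higher and 11 overlapped, beside 20.9% lower and 24.1% higher over all genes. The calcium-binding alarmins S100A8 and S100A9 were the 2 members at least 2-fold apart, with S100A9 at 12.15, 11.94 and 12.07 against 13.41, 13.45 and 13.35. The pathway's inhibitor NFKBIA lay higher by 0.69. Of 17 BCL2 family genes, 9 lay higher and 4 lower, none 2-fold apart. BCL2 lay higher by 0.68 on its brightest probe set, and at -0.04 when its 4 probe sets were summarised by their median. Of 24 ATF4 amino acid and serine genes, 9 lay lower and 7 higher, with the cystine importer SLC7A11 at -1.01 and CBS, which makes cystathionine, at 0.58.

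Among 22 proteases and matrix genes, 11 lay lower and 3 higher, beside 20.9% lower and 24.1% higher over all genes. The stromelysin MMP10 read 6.83, 7.09 and 6.58 against 9.26, 9.40 and 9.18, and PLAT, the tissue plasminogen activator, read 10.94, 10.87 and 10.91 against 12.66, 12.79 and 12.68. TIMP2, an inhibitor of matrix metalloproteases, lay the other way at 11.67, 11.61 and 11.61 against 10.30, 10.37 and 10.30. LOXL1, which cross-links elastin, differed by -2.13, and COL4A4, a basement membrane collagen chain, by 2.42, with 2 of 3 COL4A4 probe sets in that direction.

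Marker lists of other cell types differed by small amounts between the trios. Their counts of members without overlap stand beside 20.9% lower and 24.1% higher over all genes. Of 12 fibroblast markers, 2 lay lower and 2 higher, and their summed level was 13.55 to 13.76 on the TACC3-low arrays, 13.27 to 13.33 on the TACC3-high arrays and 13.19 to 13.77 on the other 18. LUM, a matrix proteoglycan, made up most of that sum, at 13.43, 13.53 and 13.31 against 13.02, 13.01 and 12.96, and COL3A1 differed by -0.15. Of 10 leukocyte markers, 2 lay lower and 0 higher, with summed levels of 10.36 to 10.46 and 10.44 to 10.54. Of 8 endothelial markers, 2 lay lower and 0 higher, with summed levels of 10.73 to 10.77 and 10.82 to 10.87. RMA gives no value of 0, so absence of a marker cannot be read, and the part of other cells in the differences was not tested.

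Both of the array's human degradation controls, which compare the 3' and 5' ends of a transcript, differed between the trios. The 3' minus 5' signal of GAPDH was 0.346 to 0.376 log2 on the TACC3-low arrays and 0.222 to 0.292 on the TACC3-high arrays, without overlap, and ran from 0.196 to 0.424 on the other 18. That of ACTB was 0.997 to 1.06 and 0.703 to 0.968, also without overlap, and 0.702 to 1.17 on the other 18. The part of RNA quality in the differences between the trios was not tested.

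The same split was then read on arrays the rule did not use. ARMCX3-off arrays are the 6 below the midpoint of 7.28 between the lowest and highest ARMCX3 level, with 4.93 and 9.45 as the nearest values inside and outside. GAS1-high arrays are the 6 above the GAS1 midpoint of 7.43, with 8.52 and 6.51 as the nearest values. Each set divided into 3 arrays below and 3 above the TACC3 threshold of 11.6 and shared no array with the FGFR3-3'-low set. In the ARMCX3-off arrays 103 genes (0.521%) lay lower and 60 (0.303%) higher by the rule of no overlap and 2-fold, and in the GAS1-high arrays 50 (0.253%) lay lower and 28 (0.142%) higher. These splits were made on measured values as well and have no test.

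Most genes that separated the FGFR3-3'-low trios lay on the same side in both other sets. Of the 79 lower genes, 75 lay lower without overlap at any size in the ARMCX3-off arrays and 78 in the GAS1-high arrays, with 1 and 0 on the opposite side. Of the 155 higher genes, 141 and 147 lay higher and 1 and 0 lay lower. TACC3, whose split divided all these sets, is counted among the 79 lower genes and lay lower in both other sets. Over all 19775 genes at any size, 14.2% lay lower and 21.8% higher in the ARMCX3-off arrays, and 19.2% lay lower and 14.2% higher in the GAS1-high arrays. At 2-fold the lower genes shared 29 with the ARMCX3-off arrays, which is 36.7% of the 79 and 28.2% of the 103. They shared 43 with the GAS1-high arrays, 54.4% of the 79 and 86.0% of the 50. The higher genes shared 40 with the ARMCX3-off arrays, 25.8% of the 155 and 66.7% of the 60, and 24 with the GAS1-high arrays, 15.5% of the 155 and 85.7% of the 28.

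Both other sets shared 23 of the lower genes, among them MMP1, FABP4, FGFBP1, MMP10, SCD, FASN, DUSP6, ETV4, PHLDA1, LRP8, INSIG1, SQLE and PLAT. They shared 18 of the higher genes, among them TRIM22, SELENOP, CRISP3, MUC15, CLDN8, ERP27, UPK1A, PDE8B and PDK4. Also among those 18, and outside the rule for named genes, were SCNN1B and SCNN1G, subunits of the epithelial sodium channel, and ID2 and ID4, inhibitors of helix-loop-helix transcription factors.

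The size of single differences varied across the sets. MMP1 differed by -4.11 in the FGFR3-3'-low arrays, -3.67 in the ARMCX3-off arrays and -2.88 in the GAS1-high arrays. DUSP6 differed by -1.91, -1.86 and -1.68. FABP4 differed by -2.93, -1.27 and -2.33, and IGFBP5 by 2.99, 1.48 and 0.69. DST differed by 1.39 in the FGFR3-3'-low arrays and by only 0.17 and 0.41 in the others. CDKN1B separated the FGFR3-3'-low trios by 0.54, while its values overlapped in both other sets, at 0.13 and 0.07.

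**Figure D4:**
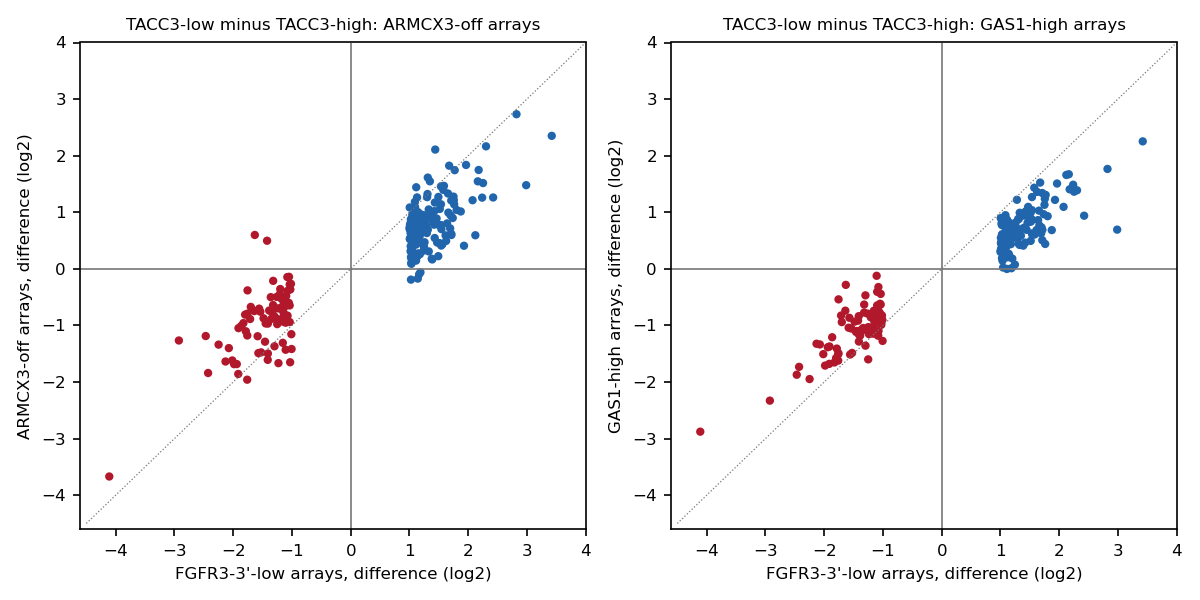
Difference between TACC3-low and TACC3-high arrays (log2) in the FGFR3-3'-low arrays (horizontal axis) against the same difference in the ARMCX3-off (left) and GAS1-high arrays (right), for the 79 lower (red) and 155 higher (blue) genes that the FGFR3-3'-low trios separated at 2-fold, with equal values on the dotted line. The lower genes lie at or below 0 in the right panel and all but a few do so in the left, and MMP1 is the lowest point of both panels.

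Gene lists differed in how far their shift was alike. The median difference of the cholesterol list was -0.999 in the FGFR3-3'-low arrays, -0.55 in the ARMCX3-off arrays and -0.88 in the GAS1-high arrays. The ERK output list was at -0.42, -0.42 and -0.46, and the luminal list at 0.48, 0.51 and 0.42. Replication genes were at -0.34, -1.01 and -0.41, with 24, 29 and 27 of 29 lower. Mitosis genes were at -0.09, -0.80 and -0.29, with 15, 26 and 23 of 26 lower, so the FGFR3-3'-low arrays had the smallest shift of the cell cycle lists of these 3 splits. Respiratory chain genes were at -0.20, -0.03 and -0.23, with 17, 1 and 17 of 20 lower and 1, 5 and 0 higher. FOXO-responsive genes were at 0.45, 0.28 and 0.16, with 15, 10 and 10 of 18 higher. These counts stand beside the shares over all genes of each set given above, and the differences between the sets were not tested.

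The 6 arrays also shared features that the TACC3 split did not use. Against the other 18 arrays, 8 genes (0.0405%) lay lower and 10 (0.0506%) higher without overlap and with medians at least 2-fold apart. AOC1, a secreted diamine oxidase, read 11.59, 11.43 and 11.54 on the TACC3-low and 9.61, 9.74 and 9.77 on the TACC3-high arrays, against 6.19 to 7.64 on the other 18. It set the 6 arrays apart and also differed between the trios, by 1.80. PLBD1, a relative of phospholipase B, read 9.73, 9.46 and 9.62 and 9.08, 8.91 and 9.10, against 6.67 to 8.19. PCK1, the enzyme that opens glucose synthesis, read 6.61, 6.18 and 6.21 and 5.10, 5.37 and 5.003, against 4.14 to 4.58.

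Other shared genes differed less between the trios. PYCARD, the inflammasome adaptor ASC, read 6.62, 7.19 and 7.08 on the TACC3-low arrays and 7.04, 7.14 and 7.16 on the TACC3-high arrays, while the other 18 ran from 9.30 to 10.91. HOXB8, a homeobox gene of body patterning, read 9.20, 9.31 and 8.66 and 9.54, 9.51 and 9.46, against 5.83 to 8.18. NDN, a growth-restraining imprinted gene, read 9.71 to 10.09 and 9.66 to 9.79, against 6.19 to 9.24, and the amino acid transporter SLC6A14 read 6.17 to 6.67 and 6.07 to 6.35, against 4.53 to 5.29. Lower on all 6 arrays were also CD109, a surface protein that binds TGF-beta, at 5.11 to 5.57 and 4.83 to 4.98 against 6.28 to 8.97, and SEC63, part of the protein import channel of the endoplasmic reticulum. SEC63 read 9.38 to 9.57 and 9.31 to 9.37 against 10.30 to 10.64, but only 2 of its 5 probe sets differed between the trios in the same direction. HDX, GPRASP3 and OSTM1 completed the lower genes named by rule, and the trios overlapped in each of them. When probe sets of a gene were summarised by their median, HOXB8, CD109, SEC63 and OSTM1 no longer set the 6 arrays apart by this rule.

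**Figure D5:**
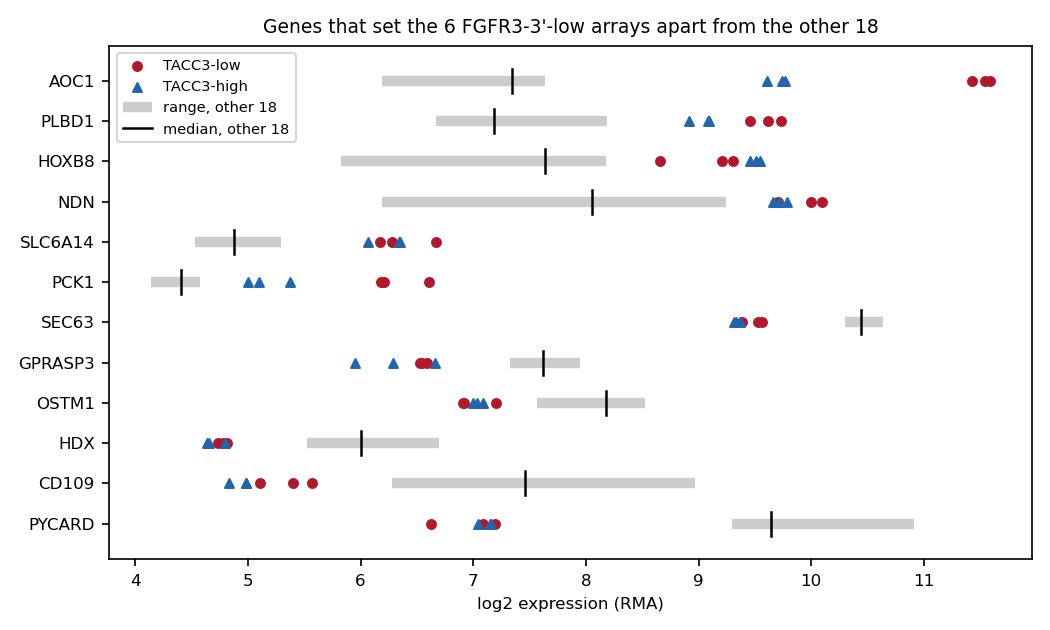
Log2 expression (RMA, horizontal axis) of the 12 genes with the widest gap between the 6 FGFR3-3'-low arrays and the other 18, 1 symbol an array, red circles for TACC3-low and blue triangles for TACC3-high. Grey bars and black ticks give the range and median of the other 18 arrays; AOC1 separates the trios as well, at 11.43 to 11.59 against 9.61 to 9.77, while PYCARD does not.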

How the data were processed

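RT112 expression was measured on 24 arrays. The values deposited by the authors are log2 expression values of 54675 probe sets, and the submitters' processing notes name RMA and affy without versions. RMA quantile-normalizes the arrays, which removes any shift shared by most genes, and array medians ran from 6.98 to 7.08. Arrays have no read depth, and precision rests on how many there are. Probe sets with 1 gene symbol in GEO's platform annotation (41097) were kept, the 1801 with several and 11777 with none were not used, and 41043 matched a GRCh38.p14 RefSeq table by Entrez identifier. The probe set with the highest mean over 24 arrays stood for a gene, which gave 19775 genes.

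The trios were described by each array's value, by the difference of middle values and by whether the values overlap. Labelled groups were tested in 1 limma fit (3.58.1, R 4.3.3; 16 residual degrees of freedom, 3.13 from the prior) with Benjamini-Hochberg adjustment. Both steps were tested on simulated data. The replicate numbers were not used to pair the arrays in this fit. Alternatives were array centring, a filter on low levels, the median over probe sets, a 1.5-fold limit, means, array weights, a replicate block, the arrays of 1 line alone and leaving out each array.

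The arrays, the 24 lists (464 genes, 422 measured) and the rules were chosen with earlier results of these data known. Genes named are FGFR3 and TACC3, the 12 with the widest gap per direction, up to 4 separated members per list (otherwise the 1 with the largest difference), and the 6 per direction with the widest gap between the 6 arrays and the other 18, 118 in all. FGFR1, FGFR4, MYC, MCM7 and others, where said, were added after their values were seen. Where a list is described by a few examples, the remaining members are in its counts.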

Additional observations from a re-analysis of the deposited data

Results flagged for a closer look

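Among the 6 FGFR3-3'-low arrays, PYCARD at 6.62 on the array labelled 4-1 with doxycycline (replicate 1) stood apart from the other 5, which lay between 7.04 and 7.19. It was the 1 such case in 118 genes screened, and chance alone sets an array apart in about 1 of 20 groups.

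In 21 comparisons among 449 genes, the trios did not overlap here and lay the opposite way in the ARMCX3-off or GAS1-high arrays. None of these differences between sets was tested. The widest was S100A8, an alarmin, at -1.42 in the FGFR3-3'-low and 0.50 in the ARMCX3-off arrays. The surface keratin KRT20 was at -0.28 here, 0.85 in the ARMCX3-off and 0.49 in the GAS1-high arrays. EGFR was at 0.29 here and -0.59 in the ARMCX3-off arrays, although only 5 of its 9 probe sets lay the same way here.

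Cell cycle genes that lay higher here and lower in the ARMCX3-off arrays were TOP2A (0.25 and -0.69), NUSAP1 (0.12 and -0.57) and CENPF (0.06 and -0.74), and CENPF was also at -0.30 in the GAS1-high arrays. CDKN1A, the inhibitor p21, was at -0.16 here and 0.36 in the ARMCX3-off arrays. IRS2, an insulin receptor adaptor, was at 0.45 and -0.25, and KLF6 at 0.06 and -0.25, with -0.19 in the GAS1-high arrays.

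The rest were inflammatory, metabolic and adhesion genes, all opposite in the ARMCX3-off arrays. NFKBIZ was at 0.42 here and -0.36 there, IL1A at 0.41 and -0.35, IRF1 at -0.25 and 0.25, and the death regulator PMAIP1 at 0.20 and -0.47. TM7SF2, a sterol reductase, was at -0.43 and 0.28 and CDH5 at -0.21 and 0.28. The integrin ITGA6 was at 0.04 and -0.21, and the respiratory chain genes COX4I1 and ATP5PO were at -0.09 and -0.07 here and 0.05 and 0.04 there.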

How the results depend on the processing

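The counts of separated genes between the trios, 79 lower and 155 higher, were 319 and 768 with a 1.5-fold limit. The other settings (centring, filter, probe set median, means) gave 66 to 84 and 106 to 164, and leaving out 1 array gave 74 to 87 and 142 to 184. Between the 6 arrays and the other 18, the 8 lower genes became 3 without low-level genes (MDK, PYCARD and SEC63), 5 with the probe set median and 17 at 1.5-fold. The 10 higher became 3 without low-level genes (AOC1, DMBT1 and NDN) and 23 at 1.5-fold. With the probe set median, CD109, OSTM1 and SEC63 left the lower genes and HOXB8 left the higher. Leaving out 1 of the 6 arrays gave 8 to 10 in both directions. MDK and DMBT1 were named after their values were seen.

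Calls for the 6-16 line, 0 in the limma fit, were 1 with the replicate number as a block (TNP1, adjusted p = 0.0456 in limma), 1 with the arrays of that line alone (FAM171B, adjusted p = 0.00664 in limma) and 1291 with array weights. Over all settings the smallest adjusted p of this line ran from 0.000584 to 0.920. The cause was not tested. The block changed no other call. It pairs arrays by number only. With labelled-group means subtracted, the most correlated array of another group carried the same number for 12 of 24 arrays, where 7 of the 21 candidates carry it. Leaving out any of the 24 arrays left each labelled count at 0.

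Median differences changed sign in 8 sets, all genes among them, each with a value within 0.1 of 0 (16 of 150 values). Single genes changed sign in 7 of 590 values, in BCL2, CDK6, NPC1, OSTM1, SLC6A14 and TBX3. No named gene past 2-fold did. By more than the spread between arrays, 91 of the 590 gene values and 49 of the 150 list values moved. Fitting each probe set on its own, added after the data were seen, left each labelled count at 0. The 6 arrays limit what can be separated, and low values near the array background limit genes such as MMP1, PCK1 and PDK4.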
